A study of Mus musculus with 10 samples.

Results

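The genes described here are 8 genes of the lymphatic endothelium, the cell layer that lines lymph vessels, and of the growth factors that act on it: Flt4, Prox1, Lyve1, Reln, Mmrn1, Pdpn, Vegfc and Vegfd. They were taken by name from the 21729 genes of the deposited protein-coding table, within 55416 gene identifiers in all. Vegfd was matched by its gene identifier, because the table lists it under the older name Figf. All 8 passed the filter on low counts.

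RNA was sequenced from mouse digit tip blastemas, the cell masses that form at the stump of an amputated digit. The mutant animals carried ΔLARM1/2, a deletion of a pair of limb enhancers of the homeobox gene Lmx1b, and the wild type animals did not; both were of mixed CD1 and C57Bl/6 background. Blastemas were collected 12 days post amputation (dpa) from mice aged 33 days, with 3 mutant and 2 wild type libraries, and at 14 dpa from mice aged 35 days, again with 3 mutant and 2 wild type libraries. Each library pooled 6 amputated central digits of the hindlimb, and the labels do not say how many animals gave them, so the p-values measure the spread between pools, which may be partly technical. The labels leave the zygosity of the deletion unstated.

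Lymphatic endothelial cells arise from veins when the homeobox factor Prox1 switches on in them, and they then grow towards VEGF-C, which together with VEGF-D activates the receptor tyrosine kinase encoded by Flt4. Lyve1, Reln, Mmrn1 and Pdpn are commonly used as markers of these vessels: a hyaluronan receptor, a secreted glycoprotein, a large secreted carrier protein and a membrane mucin. None of them is private to lymph vessels. Flt4 is also made by sprouting blood vessels, Lyve1 by some tissue macrophages, Pdpn by basal keratinocytes, fibroblasts and osteocytes, Mmrn1 by megakaryocytes, and Prox1 and Reln by neurons.

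Each library held between 69998104 and 101632364 expected counts. Lmx1b had 0.0278 to 0.336 CPM (counts scaled to library size) in mutant libraries, against 1.69 to 2.94 CPM in wild type libraries. Mutant 14 dpa replicate 1, so named in its title, has a genotype tag of wild type, and its Lmx1b level, 0.234 CPM, lay inside the mutant range; it was kept as mutant. Wild type 14 dpa replicate 1 had the lowest share of its counts in protein-coding genes, 81.5%. These are the pair of 14 dpa libraries in doubt below.

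Across both days, 6 of the 8 genes fell in mutant blastemas, 1 rose and 1 did not pass the test. Flt4, Prox1, Lyve1, Reln, Mmrn1 and the ligand Vegfc were lower, the ligand Vegfd was higher, and Pdpn was the gene that did not pass. Over all 20216 genes tested, 43.7% passed in this comparison, 22.2% lower and 21.5% higher. The median log2 fold change of the 8 genes, mutant over wild type, was -1.57, against 0.02 for all genes. The test was edgeR's quasi-likelihood test on rounded expected counts with Benjamini-Hochberg adjustment over all genes, passed at an adjusted p under 0.05; an adjusted p with no tool named beside it is from this test. In bulk RNA, fewer cells of a type and less RNA per cell cannot be told apart, which holds for each difference below.

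On both days, every mutant library had a lower CPM than every wild type library for those 6 lower genes, and a higher CPM for Vegfd. Over all genes, 19.3% lay wholly below on both days and 18% wholly above. Taken singly, 12 dpa had 6 of the 8 genes wholly below and 1 above (26% and 25.7% of all genes), and 14 dpa had 7 below, Pdpn included, and 1 above (31.6% and 30.8% of all genes). The count of 6 lower and 1 higher stayed the same when any single library, or both 14 dpa libraries in doubt, were left out. In the 6 libraries not called female by Xist, 3 of the 8 were lower (Flt4, Reln and Vegfc) and Vegfd was higher, with 3524 of all genes passing, 37.8% of them higher. That subset holds 1 wild type library a day, and the one at 14 dpa, replicate 1, had 18.5 CPM of Xist, against 0.121 to 0.607 CPM in the other 5, so its sex is uncertain. With mutant 14 dpa replicate 1 moved to wild type as its tag says, 0 members and 0 of all genes passed, and Flt4 had an adjusted p of 0.0599.

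**Figure D1:**
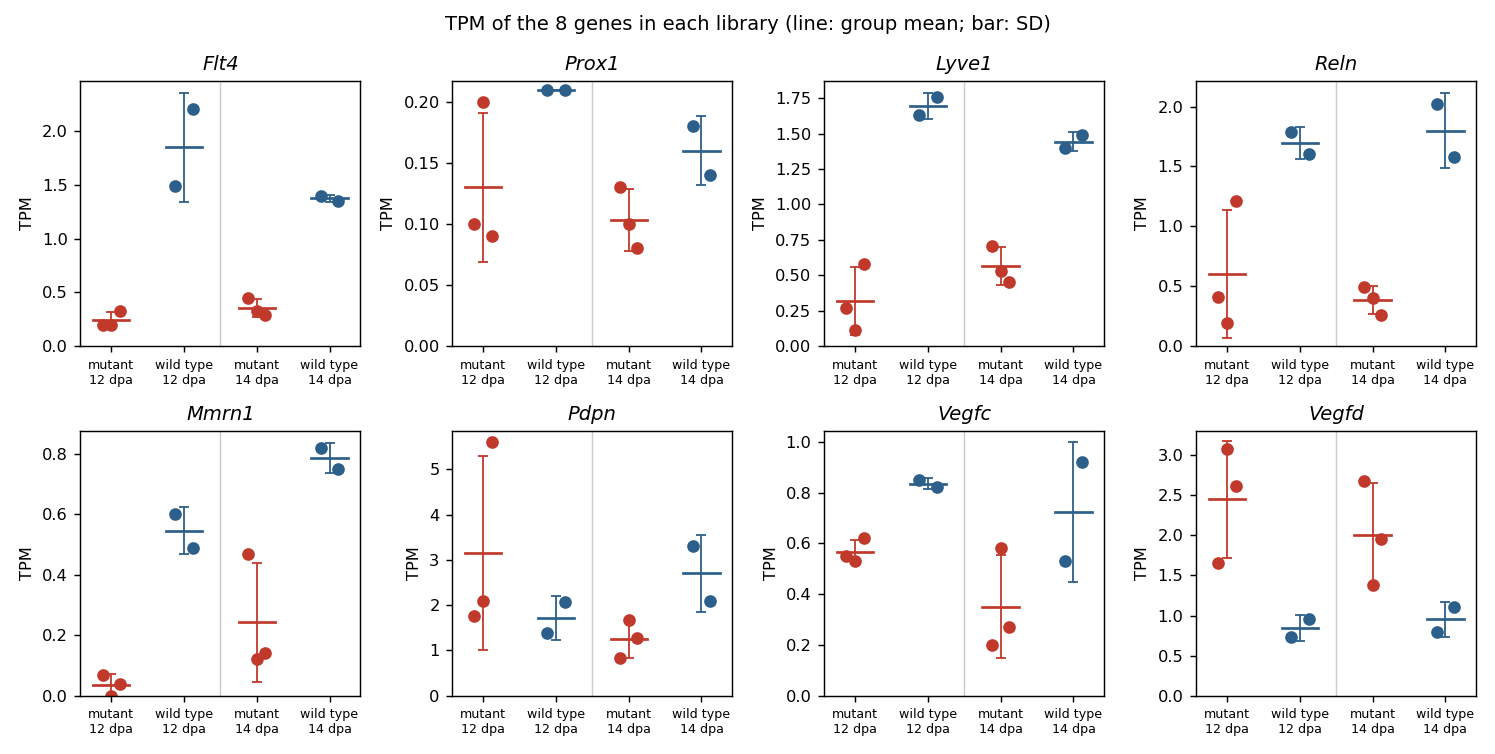
TPM (transcript abundance scaled by gene length and depth) of each of the 8 genes in the 10 libraries, with mutant groups (red) left of wild type groups (blue) at 12 and then 14 dpa; points are libraries, lines group means and bars SD (n = 3 mutant, 2 wild type per day). Flt4, Lyve1 and Reln sit lower in every mutant library, at means of 0.3, 0.442 and 0.493 TPM over both days, against 1.61, 1.57 and 1.75 TPM in wild type, while Vegfd sits higher.

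Flt4, the receptor gene, showed the clearest separation of the 8. It had 1.37, 1.25 and 1.89 CPM in mutant libraries at 12 dpa, against 12.5 and 16.2 CPM in wild type libraries. At 14 dpa it had 3.48, 2.82 and 2.53 CPM in mutant libraries, against 15.9 and 11.8 CPM in wild type libraries. The highest mutant value on either day was thus well under the lowest wild type value. The difference over both days was -2.74 on the log2 scale (SE 0.167, adjusted p = 1.97e-05), or 6.69-fold lower. It was -3.25 at 12 dpa (adjusted p = 0.000178) and -2.23 at 14 dpa (adjusted p = 7e-04), and no single library left out ended any of these calls.

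Reln and Flt4 had the smallest adjusted p-values of the 8, and their promoters are shown because both genes fell on both days. The sequences are the 250 bases before the start of each gene, 5′ to 3′, from RefSeq's promoter table on GRCm38.p6, which held 7 of the 8 genes (Lyve1 was not among them). Capitals mark the single match found in this pair, the reverse complement of CGGAAG, the core bound by ETS factors.
Flt4, chr11:49609429-49609678, plus strand: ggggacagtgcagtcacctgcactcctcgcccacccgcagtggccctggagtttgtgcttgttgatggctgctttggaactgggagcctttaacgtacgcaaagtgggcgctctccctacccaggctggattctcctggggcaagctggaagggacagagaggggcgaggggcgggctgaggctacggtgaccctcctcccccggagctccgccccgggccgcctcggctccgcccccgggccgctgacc
Reln, chr5:22344706-22344955, minus strand: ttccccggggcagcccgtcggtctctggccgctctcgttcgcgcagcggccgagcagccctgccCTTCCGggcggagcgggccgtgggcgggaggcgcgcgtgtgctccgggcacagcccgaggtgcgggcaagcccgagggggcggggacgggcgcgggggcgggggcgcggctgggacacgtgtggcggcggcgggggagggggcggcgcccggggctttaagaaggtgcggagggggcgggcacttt
Both stretches are rich in G and C, with 68.4% in Flt4 and 80% in Reln, against a median of 52.4% over 32851 promoters. CGGAAG is present on either strand in 13.6% of those promoters, so a match is a description and not a binding site. The longer ETS form CCGGAAGT, which contains CGGAAG and is in 2.88% of promoters, and the homeodomain core TAATTA, in 4.84%, had 0 matches in the 250 bases of any of the 7 genes.

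Prox1, which encodes the transcription factor of lymphatic identity, had the smallest log2 change of the 6 genes that fell. It had 0.788, 1.43 and 0.683 CPM in mutant libraries at 12 dpa, against 1.98 and 1.89 CPM in wild type libraries. At 14 dpa the values were 1.15, 0.935 and 0.861 CPM in mutant libraries, against 2.57 and 1.62 CPM in wild type libraries. The groups did not overlap on either day, but the gap at 14 dpa lay between 1.15 and 1.62 CPM. The difference over both days was -1.05 (SE 0.251, adjusted p = 0.00859), or 2.06-fold lower. At 12 dpa it missed the threshold (adjusted p = 0.0807; 0.0354 without mutant 12 dpa replicate 2), and at 14 dpa it passed narrowly (adjusted p = 0.0403). The 14 dpa call was lost without either wild type 12 dpa library or any 1 of the 5 libraries of 14 dpa, with the smallest adjusted p, 0.0551, without wild type 14 dpa replicate 2 and the largest adjusted p, 0.277, without wild type 14 dpa replicate 1, and it was also lost with both libraries in doubt left out (0.27). Prox1 had the lowest mean TPM of the 8 genes in wild type blastemas, 0.185 ± 0.0332 (SD, n = 4), and 0.117 ± 0.0441 TPM (SD, n = 6) in mutants.

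Lyve1, the hyaluronan receptor, had 0.844, 0.297 and 1.35 CPM in mutant libraries at 12 dpa, against 5.45 and 4.53 CPM in wild type libraries. The 14 dpa values were 2.47, 1.6 and 1.72 CPM in mutant libraries, against 5.68 and 4.73 CPM in wild type libraries. All 6 mutant libraries lay below all 4 wild type libraries, and the lowest value was that of mutant 12 dpa replicate 2. Lyve1 was 4.01-fold lower over both days (SE 0.333 on the log2 scale, adjusted p = 0.00164). The difference was -2.58 at 12 dpa (adjusted p = 0.00905) and -1.43 at 14 dpa (adjusted p = 0.0415). The 14 dpa call was lost without any 1 of the 5 libraries of that day (adjusted p between 0.0545 and 0.171, the highest without wild type 14 dpa replicate 1), with sex as a covariate (0.0595), and without mutant 12 dpa replicate 1 (0.0568) or either wild type 12 dpa library (0.0604 without replicate 1 and 0.0599 without replicate 2).

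Reln, which encodes the secreted glycoprotein reelin, had 3.82, 2.15 and 6.26 CPM in mutant libraries at 12 dpa, against 21.5 and 15.2 CPM in wild type libraries. At 14 dpa the mutant libraries were close together at 3.18, 3.15 and 2.67 CPM, against 24.2 and 19.4 CPM in wild type libraries. No mutant value came near a wild type one. Reln was 5.72-fold lower over both days (log2 -2.52, SE 0.258, adjusted p = 0.000218), with -2.17 at 12 dpa (adjusted p = 0.00631) and -2.86 at 14 dpa (adjusted p = 0.00174). The effective transcript length that RSEM gave Reln ran from 4760 to 10676 bases in mutant libraries and from 6211 to 8538 bases in wild type libraries. TPM divides by this length. Mutant 12 dpa replicate 3, with 5305 bases and the highest mutant CPM, reached 1.21 TPM, and mutant 14 dpa replicate 1, with 4760 bases, had 0.49 TPM. The reelin receptors Lrp8 and Vldlr and the adaptor Dab1 did not pass the test, with log2 fold changes of -0.28, -0.22 and 0.47, and Dab1 was near 0 in every group. The reelin partners that passed as lower numbered 2 of 3 without mutant 14 dpa replicate 1 and 1 without wild type 14 dpa replicate 2.

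Mmrn1, which encodes the carrier protein multimerin, was the most variable of the 8. It had 0.293, 0 and 0.179 CPM in mutant libraries at 12 dpa, against 3.6 and 2.52 CPM in wild type libraries. By 14 dpa it stood at 2.7, 0.716 and 0.861 CPM in mutant libraries, against 6.62 and 4.67 CPM in wild type libraries. Mutant 12 dpa replicate 2 had no count at all for Mmrn1, and mutant 14 dpa replicate 1 stood above the other mutant libraries. Mmrn1 was 8.67-fold lower over both days (log2 -3.12, SE 0.621, adjusted p = 0.00453), and its fold depends on the fit's small prior count. At 12 dpa the difference was -4.24 (adjusted p = 0.0193). That call was lost without mutant replicate 3 of that day (0.0512) or either wild type library of that day (0.0744 without replicate 1 and 0.0737 without replicate 2). At 14 dpa it was -1.99 and did not pass (adjusted p = 0.0937), although without mutant 12 dpa replicate 2 it did (0.0261).

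Pdpn, which encodes podoplanin, a mucin that binds a receptor on platelets, differed from the other markers. It had 3.21, 3.45 and 8.15 CPM in mutant libraries at 12 dpa, against 3.05 and 3.82 CPM in wild type libraries. On the later day it had 1.78, 3.53 and 2.94 CPM in mutant libraries, against 10.2 and 4.68 CPM in wild type libraries. The groups overlapped at 12 dpa and not at 14 dpa, and 1 library of each genotype stood far above its partners. Over both days the log2 difference was -0.45 (SE 0.339, adjusted p = 0.305). At 12 dpa it was 0.52 (adjusted p = 0.491), and -0.030 without mutant 12 dpa replicate 3. At 14 dpa it was -1.43 (adjusted p = 0.0462). The 14 dpa call was lost without either wild type 12 dpa library (0.0656 and 0.0652) or any mutant 14 dpa library (0.123, 0.0506 and 0.0927 without replicates 1, 2 and 3), and without wild type 14 dpa replicate 1 the difference was -0.76 (adjusted p = 0.35). It was also lost with no filter (0.0787), with sex as a covariate (0.0597), in limma-voom (0.0652) and in limma-trend on TPM (0.154 and 0.11).

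The Pdpn promoter is shown because it was the only one of the 7 with matches to more than 1 of the motifs searched. Capitals mark TGTTTAC, a forkhead motif found on either strand in 3.17% of promoters, and AACAAAG, a SOX motif found in 5.03%.
Pdpn, chr4:143299565-143299814, minus strand: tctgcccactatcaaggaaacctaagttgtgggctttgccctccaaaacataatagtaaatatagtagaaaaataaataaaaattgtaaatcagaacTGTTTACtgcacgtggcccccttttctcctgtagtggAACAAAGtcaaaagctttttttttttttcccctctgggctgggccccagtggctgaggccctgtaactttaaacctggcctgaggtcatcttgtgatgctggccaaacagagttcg
At 43.2% G and C this stretch was below the median of all promoters. The other 6 genes had 0 matches to TGTTTAC and AACAAAG in their 250 bases.

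The ligands Vegfc and Vegfd, close relatives that bind the same receptor, moved in opposite directions. Vegfc had 0.901, 1.21 and 1.28 CPM in mutant libraries at 12 dpa, against 2.26 and 2.25 CPM in wild type libraries. At the later day the values were 0.508, 1.48 and 0.833 CPM in mutant libraries, against 2.25 and 2.4 CPM in wild type libraries. The groups were apart in CPM on both days. In TPM they overlapped at 14 dpa, where mutant replicate 2 had 0.58 TPM, above the 0.53 TPM of wild type replicate 1. Vegfc was 2.21-fold lower over both days (log2 -1.15, SE 0.273, adjusted p = 0.00821). It did not pass at 12 dpa (-0.99, adjusted p = 0.103) and passed at 14 dpa (-1.30, adjusted p = 0.0296). The 14 dpa call was lost without mutant replicate 1 (0.0553) or 3 (0.082) of that day or either wild type library of that day (0.0998 and 0.11 without replicates 1 and 2), and without mutant 14 dpa replicate 1 or 2 the 12 dpa difference passed (0.0444 and 0.0439). The 14 dpa call was also lost when that day was fitted alone (0.0699) and in limma-trend on TPM (0.0813 and 0.0724).

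Vegfd had 3.26, 5.52 and 4.44 CPM in mutant libraries at 12 dpa, against 1.72 and 1.93 CPM in wild type libraries. The 14 dpa libraries gave 6.33, 3.27 and 4.83 CPM in mutant libraries, against 2.57 and 2.91 CPM in wild type libraries. Every mutant library was above every wild type library on both days. Vegfd was 2.06-fold higher over both days (log2 1.04, SE 0.221, adjusted p = 0.00487). The difference was 1.27 at 12 dpa (adjusted p = 0.0261) and 0.81 at 14 dpa, where it did not pass (adjusted p = 0.0682). The 12 dpa call was lost without mutant 12 dpa replicate 2 (0.0629) or either wild type 12 dpa library (0.128 without replicate 1 and 0.118 without replicate 2). Without mutant 14 dpa replicate 2 the 14 dpa difference passed (0.0248). Vegfd lies on the X chromosome, and by their Xist levels 4 libraries were female. The female library had the lowest Vegfd of its group in mutants at 12 dpa (3.26 CPM) and 14 dpa (3.27 CPM) and in wild type at 12 dpa (1.72 CPM), and the higher Vegfd of the 2 wild type libraries at 14 dpa (2.91 CPM). With sex as a covariate Vegfd passed over both days.

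The ratio of Vegfd to Vegfc in TPM, which compares the pair per length, separated the genotypes. It was 3, 5.81 and 4.23 in mutant libraries at 12 dpa, against 0.859 and 1.17 in wild type libraries. At 14 dpa it was 13.4, 2.38 and 7.22 in mutant libraries, against 1.51 and 1.21 in wild type libraries. Vegfd was thus the more abundant ligand in all 6 mutant libraries, whereas in wild type the pair stood at similar levels. The sum of both was 2.2 to 3.61 TPM in mutant libraries at 12 dpa, against 1.58 and 1.78 TPM in wild type libraries, and 1.96 to 2.88 TPM in mutant libraries at 14 dpa, against 1.33 and 2.03 TPM in wild type libraries. In TPM the sums were apart at 12 dpa and overlapped at 14 dpa. The effective length of Vegfc was 1410 bases in mutant 12 dpa replicate 1, against 1887 and 2219 bases in wild type at 12 dpa. In CPM that mutant library had 3.26 for Vegfd and 0.901 for Vegfc. Wild type 12 dpa replicate 2 had 1.93 and 2.25 CPM, so sums of CPM overlapped at 12 dpa as well.

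**Figure D2:**
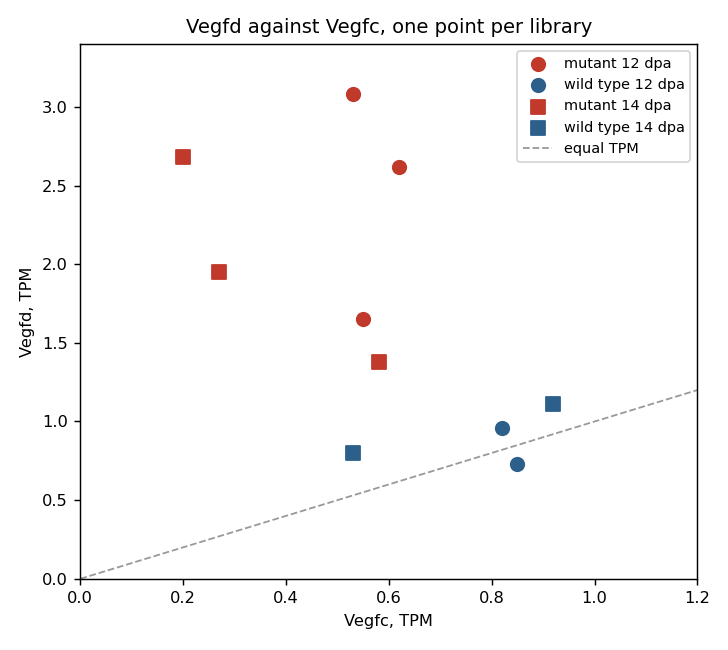
TPM of Vegfd (vertical axis) against TPM of Vegfc (horizontal axis), 1 point per library, in mutant (red) and wild type (blue) blastemas at 12 dpa (circles) and 14 dpa (squares); the dashed line marks equal TPM. The 4 wild type points lie near the line, with ratios of 0.859 to 1.51, and the 6 mutant points lie above it, with ratios of 2.38 to 13.4.

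The promoters of this pair are shown because the ligands moved apart. Neither held a match to any motif searched.
Vegfc, chr8:54077282-54077531, plus strand: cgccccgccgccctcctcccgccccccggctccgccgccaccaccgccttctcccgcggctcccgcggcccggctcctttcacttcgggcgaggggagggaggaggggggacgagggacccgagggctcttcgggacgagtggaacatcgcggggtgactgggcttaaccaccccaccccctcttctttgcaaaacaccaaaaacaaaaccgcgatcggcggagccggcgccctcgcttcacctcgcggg
Vegfd, chrX:164373272-164373521, plus strand: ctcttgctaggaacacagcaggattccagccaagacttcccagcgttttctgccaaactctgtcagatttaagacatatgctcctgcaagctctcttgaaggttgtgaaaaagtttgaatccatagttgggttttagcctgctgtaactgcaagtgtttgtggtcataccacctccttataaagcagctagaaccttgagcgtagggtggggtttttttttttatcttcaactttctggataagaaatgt
They differ in base composition, with 71.6% G and C and 30 CpG in Vegfc, and 42.4% and 2 CpG in Vegfd, against medians of 52.4% and 6 CpG over all promoters.

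Taken day by day, 4 genes were lower and 1 higher at 12 dpa, and 6 were lower and 0 higher at 14 dpa. Over all genes, 16.5% passed at 12 dpa (9.34% lower, 7.18% higher) and 33.3% at 14 dpa (17.2% lower, 16.1% higher). Flt4, Lyve1 and Reln passed on both days, and these lower counts ran from 3 to 5 at 12 dpa and from 2 to 7 at 14 dpa when single libraries were left out. Without both libraries in doubt, 2 genes were lower at 14 dpa. The genotype contrast did not differ between the days for any of the 8 genes by adjusted p in edgeR, DESeq2, limma-voom or limma-trend on TPM, and 0% of all genes passed in edgeR. In edgeR, 2 of the 8 were under 0.05 before adjustment. Flt4 had a smaller contrast at 14 dpa (log2 difference 1.02, edgeR adjusted p = 0.544), and the Pdpn contrast changed sign (-1.95, edgeR adjusted p = 0.545).

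**Figure D3:**
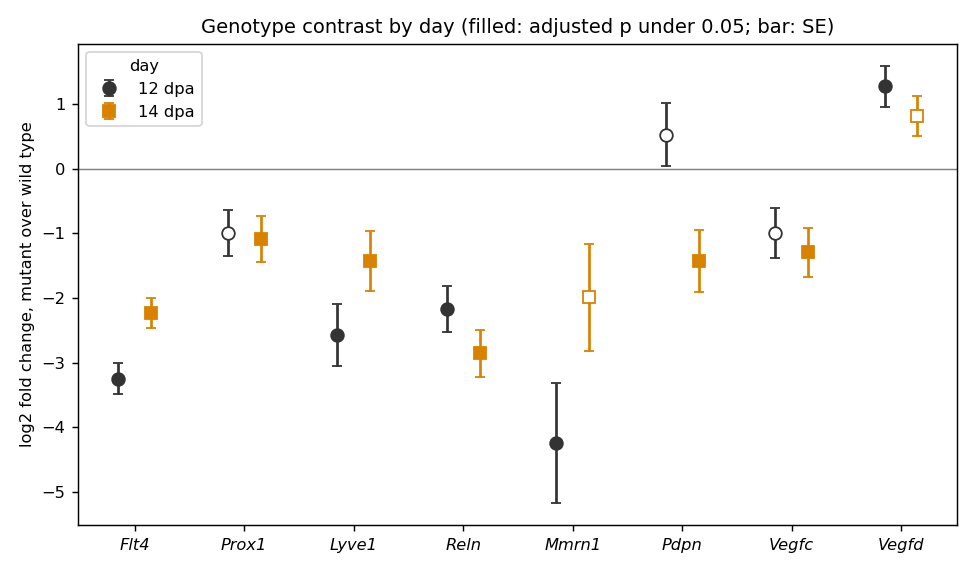
Log2 fold change, mutant over wild type, of each of the 8 genes at 12 dpa (black circles) and 14 dpa (orange squares), with SE bars; filled symbols have an adjusted p under 0.05. Flt4 lies at -3.25 and -2.23, Reln at -2.17 and -2.86, and Vegfd above the zero line at 1.27 and 0.81, while Pdpn changes side.

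Between the days within a genotype, none of the 8 genes passed in edgeR. In mutants 0.0346% of all genes passed between 12 and 14 dpa (0.0148% higher), and 3 of the 8 genes were under 0.05 before adjustment, all higher at 14 dpa: Flt4 (log2 0.96, edgeR adjusted p = 0.0943), Lyve1 (1.21, 0.191) and Mmrn1 (3.14, 0.133). DESeq2 called 3 genes higher in this comparison, and limma called 0. The share of all genes above is from edgeR and does not apply to the DESeq2 count. In wild type 0% of all genes passed, 0 of the 8 were under 0.05 before adjustment, and DESeq2 and limma called 0. The mean of Flt4 in mutants was 1.51 ± 0.339 CPM at 12 dpa and 2.94 ± 0.486 CPM at 14 dpa (SD, n = 3 each), and in wild type 14.4 ± 2.63 and 13.8 ± 2.9 CPM (SD, n = 2 each).

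By mean TPM, the order of the 8 genes differed between genotypes. In mutants at 12 dpa Pdpn (3.15 TPM) and Vegfd (2.45 TPM) led and overlapped each other, and Reln (0.603 TPM), Vegfc (0.567 TPM), Lyve1 (0.32 TPM), Flt4 (0.243 TPM) and Prox1 (0.13 TPM) followed, each overlapping its neighbour. Mmrn1 was last at 0.0367 TPM, clear of Prox1. In wild type at 12 dpa Flt4 (1.85 TPM), Pdpn (1.72 TPM), Reln (1.7 TPM) and Lyve1 (1.69 TPM) led with overlapping ranges, Vegfd (0.845 TPM) and Vegfc (0.835 TPM) came next and overlapped, and Mmrn1 (0.545 TPM) and Prox1 (0.21 TPM) were last, each clear of the gene above it. The receptor gene thus was the first in wild type and the sixth in mutants at that day.

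At 14 dpa the mutants had Vegfd (2 TPM) and Pdpn (1.26 TPM) first, then Lyve1 (0.563 TPM), Reln (0.383 TPM), Flt4 (0.357 TPM), Vegfc (0.35 TPM), Mmrn1 (0.243 TPM) and Prox1 (0.103 TPM), with only Pdpn and Lyve1 clear of each other among neighbours. In wild type the order was Pdpn (2.7 TPM), Reln (1.8 TPM), Lyve1 (1.44 TPM), Flt4 (1.38 TPM), Vegfd (0.955 TPM), Mmrn1 (0.785 TPM), Vegfc (0.725 TPM) and Prox1 (0.16 TPM). There Lyve1 and Flt4 overlapped, as did Vegfd and Mmrn1, and Mmrn1 and Vegfc, and the other neighbours were apart. Among protein-coding genes the 8 lay from low to mid rank. Pdpn exceeded 54.2% of them in mutants and 55.2% in wild type, Vegfd 54.3% and 47.1%, Flt4 40.4% and 51.9%, and Prox1 35.2% and 37.5%.

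Genes shared by all endothelial cells fell in mutants as well, and each of the 8 was set against them. All 11 pan-endothelial genes tested were lower over both days, with a median log2 fold change of -1.70; they include Cdh5 (-2.12, adjusted p = 2.98e-05), Robo4 (-2.05, 0.000133), Esam (-1.81, 0.000681), Pecam1 (-1.77, 0.000133), Tie1 (-1.75, 9.64e-05) and Egfl7 (-1.70, 0.000396). Their summed level was 18.9 to 33.7 TPM in mutants at 12 dpa, against 54.2 to 73.2 TPM in wild type, and 13.3 to 25.8 TPM in mutants at 14 dpa, against 53.4 to 65.3 TPM in wild type. Each member's TPM was expressed as a percentage of the geometric mean TPM of these 11 genes.

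For Flt4 this percentage was 14.4, 11.6 and 13.6 in mutant libraries at 12 dpa, against 38.9 and 42.4 in wild type libraries. At 14 dpa it was 46.4, 17.1 and 20.3 in mutant libraries, against 37 and 28 in wild type libraries. The groups were apart at 12 dpa, and at 14 dpa mutant replicate 1, the library with the conflicting tag, lay above both wild type libraries. That library had the lowest pan-endothelial level of all 10, a geometric mean of 0.97 TPM. The edgeR fit scaled to these genes gave Flt4 -0.93 (SE 0.282, adjusted p = 0.00137), but in this fit 82.5% of all genes passed (2.1% lower, 80.4% higher), and the error of the scale is shared by all genes. The p-values of this fit also match a spread taken as known rather than estimated from the 10 pools, so they overstate the certainty. An exact two-sided permutation of genotype within days, on the log2 ratio of counts plus 0.5, in which the smallest possible p is 0.01, gave p = 0.05 for Flt4.

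In the same scaled fit 2 genes passed as lower, Flt4 and Reln (-0.75, adjusted p = 0.00718), and 3 as higher, Prox1 (0.78, adjusted p = 0.0313), Pdpn (1.25, adjusted p = 5.24e-05) and Vegfd (2.89, adjusted p = 1.19e-17). The median log2 fold change of all genes in this fit was 1.82. Prox1 and Pdpn lay below that median, and Vegfd lay above it. Lyve1 (-0.20), Vegfc (0.55) and Mmrn1 (-1.21) did not pass. Scaled to Cdh5 and Pecam1 alone, Vegfc passed as higher (0.76, adjusted p = 0.0261), and with the replicate block Mmrn1 passed as lower (-1.55, 0.000136). Prox1 did not pass with sex as a covariate (0.0755) or in limma-voom (0.0638). The exact permutation test, run on each of the 8 and not adjusted, gave p = 0.06 for Reln, 0.15 for Prox1, 0.03 for Pdpn, 0.01 for Vegfd, 0.01 for Vegfc, 0.51 for Lyve1 and 0.16 for Mmrn1. The pan-endothelial level itself was 0.97 to 2.43 TPM in mutant libraries and 3.79 to 5.21 TPM in wild type libraries. A gene that fell less than this scale thus tends to a small p in this test. It was not run on other genes, so no share over all genes stands beside these values. Vegfd was 118, 179 and 108% of the pan-endothelial level in mutant libraries at 12 dpa, against 19 and 18.4% in wild type libraries, and 276, 71.4 and 136% at 14 dpa, against 21.1 and 23%. Lyve1 was 19.4, 6.38 and 23.9% in mutant libraries at 12 dpa, against 42.5 and 33.8% in wild type libraries, and 73.2, 27.4 and 31.4% at 14 dpa, against 37 and 30.9%. The Lyve1 groups were thus apart at 12 dpa and overlapped at 14 dpa. Pdpn was 126, 121 and 231% in mutant libraries at 12 dpa, against 36 and 39.5% in wild type libraries. At 14 dpa Pdpn was 85.6, 86.4 and 89.4% in mutant libraries, against 87.1 and 43.6% in wild type libraries, and the groups overlapped. Leaving out single libraries moved the lower count from 1 to 3 and the higher count from 2 to 3. The calls lost were Prox1 without mutant 12 dpa replicate 2 (0.159), either wild type 12 dpa library (0.0596 without replicate 1 and 0.111 without replicate 2), mutant 14 dpa replicate 1 (0.138) or replicate 2 of wild type at 14 dpa (0.161), and Reln without mutant 12 dpa replicate 2 (0.0534) or replicate 1 of wild type at 12 dpa (0.106) or 14 dpa (0.0513).

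**Figure D4:**
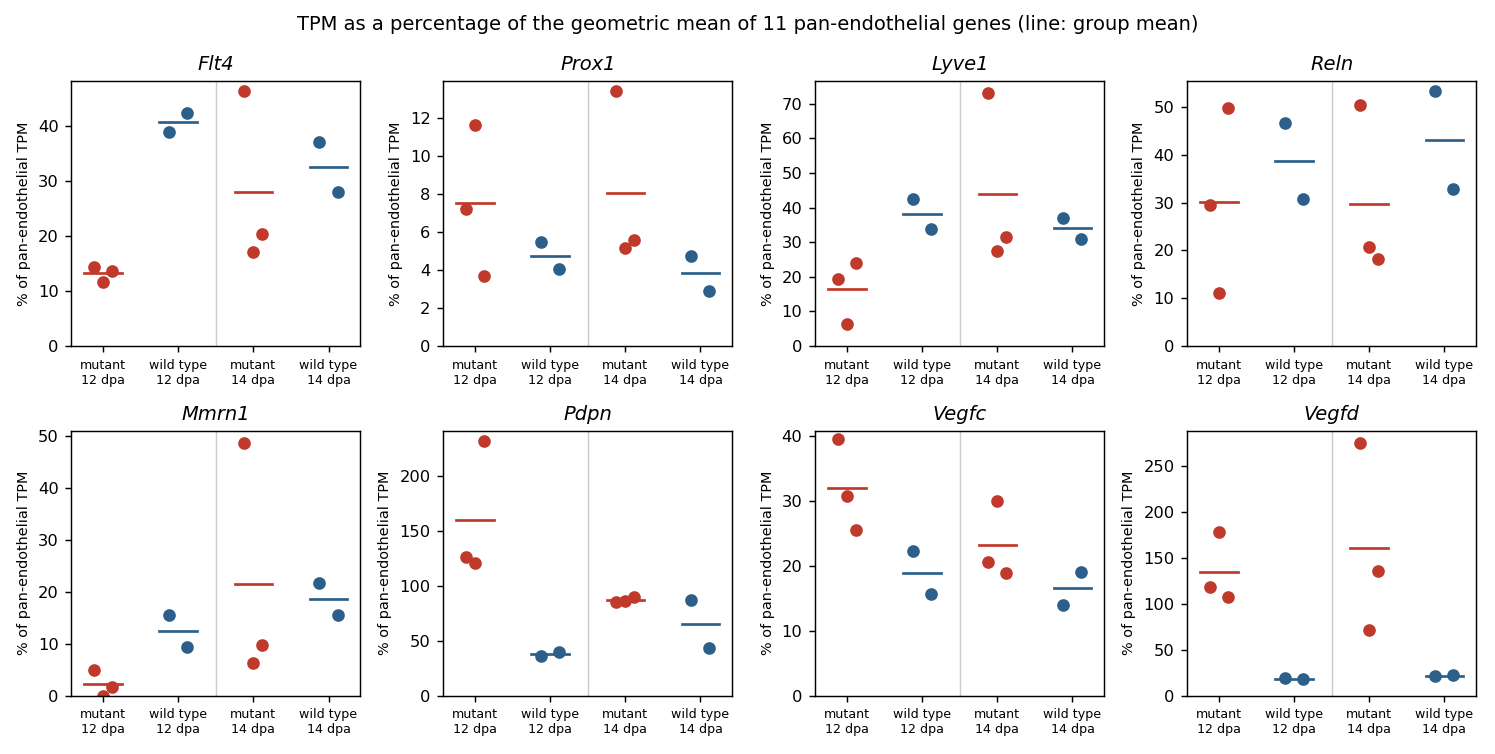
TPM of each of the 8 genes as a percentage of the geometric mean TPM of 11 pan-endothelial genes, per library, with mutant groups (red) left of wild type groups (blue) at 12 and then 14 dpa; lines are group means. Vegfd is at 71.4 to 276% in mutant libraries, against 18.4 to 23% in wild type libraries, and Flt4 at 12 dpa is at 11.6 to 14.4% in mutants, against 38.9 and 42.4% in wild type.

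The receptors and partner pathways of lymphatic growth fell together, at a median close to that of the pan-endothelial genes (-1.7). The counts of the lists that follow stand beside 22.2% of all genes lower and 21.5% higher over both days. All 15 genes of that list, which holds the sister receptors, coreceptors, the angiopoietin receptor system and the adrenomedullin system, were lower over both days, with a median log2 fold change of -1.75. Kdr, the main VEGF receptor of blood vessels, averaged 1.08 ± 0.525 TPM in mutants (SD, n = 6) and 4.12 ± 0.993 TPM in wild type (SD, n = 4), a log2 difference of -2.26 (adjusted p = 0.000223). The ligand Angpt1 was at -2.03 (0.00144), the phosphatase Ptprb at -1.82 (0.000193), the decoy receptor Flt1 at -1.82 (0.000245), the angiopoietin receptor Tek at -1.81 (0.00036) and the valve integrin Itga9 at -1.77 (0.000296). Tie1 and Ramp2 stand in this list and in the pan-endothelial one. Relative to the pan-endothelial genes, 1 of the 15 passed as lower, 2 as higher and 12 did not pass (median -0.002). In that scaled fit 2.1% of all genes passed as lower and 80.4% as higher. Without that scaling, leaving out single libraries gave 13 to 15 lower over both days.

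Other ligands and the factors that process VEGF-C were mixed, with 4 of 10 lower, 2 higher and 4 that did not pass (median -0.60). The higher share was near that of all genes (21.5%), and the lower share was above it (22.2%). Ccbe1, which brings pro-VEGF-C to its protease, averaged 0.482 ± 0.231 TPM in mutants (SD, n = 6) and 0.123 ± 0.0427 TPM in wild type (SD, n = 4), a rise of 1.77 (adjusted p = 0.0038). Adamts3, that protease, fell by 0.96 (adjusted p = 0.0371), a call lost without mutant 12 dpa replicate 1 (0.0566) or 2 (0.0724), mutant 14 dpa replicate 1 (0.0702) or 3 (0.0691), or the second wild type library of either day (0.155 at 12 dpa and 0.118 at 14 dpa). The matrix protein Svep1 fell to 2.59 ± 0.827 TPM in mutants (n = 6), against 6.87 ± 1.03 TPM in wild type (SD, n = 4), at -1.71 (adjusted p = 0.000533). Vegfa was at -0.95 (0.0018), and the proprotein convertases Pcsk5 and Furin were at -0.79 (0.0137) and 0.39 (0.0234). Pcsk5 did not pass without wild type 14 dpa replicate 1 (0.0529), nor did Furin (0.0933), which also missed without wild type 12 dpa replicate 1 (0.0763).

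Among transcription factors of lymphatic identity and valves, 6 of 11 were lower, 2 higher and 3 did not pass (median -0.79). Sox18, which acts on Prox1, was at -1.93 (adjusted p = 0.000441), Foxc2, a factor of lymphatic valves, at -1.84 (0.00165), the venous factor Nr2f2 at -1.30 (0.000307), Foxc1 at -1.19 (0.0175) and Gata2 at -1.10 (0.0123). Foxc1 did not pass without wild type 12 dpa replicate 2 (0.0603) or wild type 14 dpa replicate 1 (0.0668), and Gata2 did not pass without wild type 12 dpa replicate 2 (0.0595). Tbx1 rose by 0.87 (adjusted p = 0.00559), and its level, 39.5 ± 8.27 TPM in mutants (SD, n = 6) and 17.5 ± 4.22 TPM in wild type (SD, n = 4), was far above that of any of the 8 genes. Of the 7 further lymphatic markers, 6 were tested, 3 were lower and 3 did not pass (median -0.89). The peptide gene Nts was at -3.06 (adjusted p = 0.000801) and Klhl4 at -1.56 (0.00124), and Stab2, another hyaluronan receptor, was near 0. Ccl21a, the chemokine that draws dendritic cells to lymph vessels, was at -4.12 (0.00132), but it has a near-identical copy, Ccl21b, so its counts are uncertain.

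Of 12 genes of valves, junctions and planar polarity, 8 were lower, 1 was higher and 3 did not pass (median -0.66). The connexin genes Gja4 (-1.50, adjusted p = 0.00204) and Gja1 (-0.75, 0.00196), the elastic fibre protein Emilin1 (-1.44, 0.0105), the protocadherin pair Dchs1 (-1.35, 0.00253) and Fat4 (-1.18, 0.0042) and the ephrin Efnb2 (-0.88, 5.17e-05) were those named as lower. Of 9 genes that make, bind or break down hyaluronan, the ligand of Lyve1, 5 were lower, 1 higher and 3 did not pass (median -0.46). The synthases Has3 and Has2 were at -1.43 (0.000117) and -1.02 (0.0147), Cemip2, Cemip and Hyal1, which break it down, at -1.41 (3.84e-05), -0.96 (0.0102) and -0.46 (0.0206), and the receptor Cd44 at 0.40 (0.0238). Calls were lost without wild type 12 dpa replicate 2 (Hyal1, 0.0964, and Cd44, 0.0804), wild type 14 dpa replicate 1 (Has2, 0.0651, and Cd44, 0.0995) and wild type 14 dpa replicate 2 (Hyal1, 0.0637). Of 6 partners of podoplanin, 5 were tested, 0 were lower, 2 were higher and 3 did not pass (median 0.12): the membrane linker Ezr rose by 0.91 (0.00133) and the galectin Lgals8 by 0.37 (0.00896), and the platelet receptor Clec1b was near 0.

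**Figure D5:**
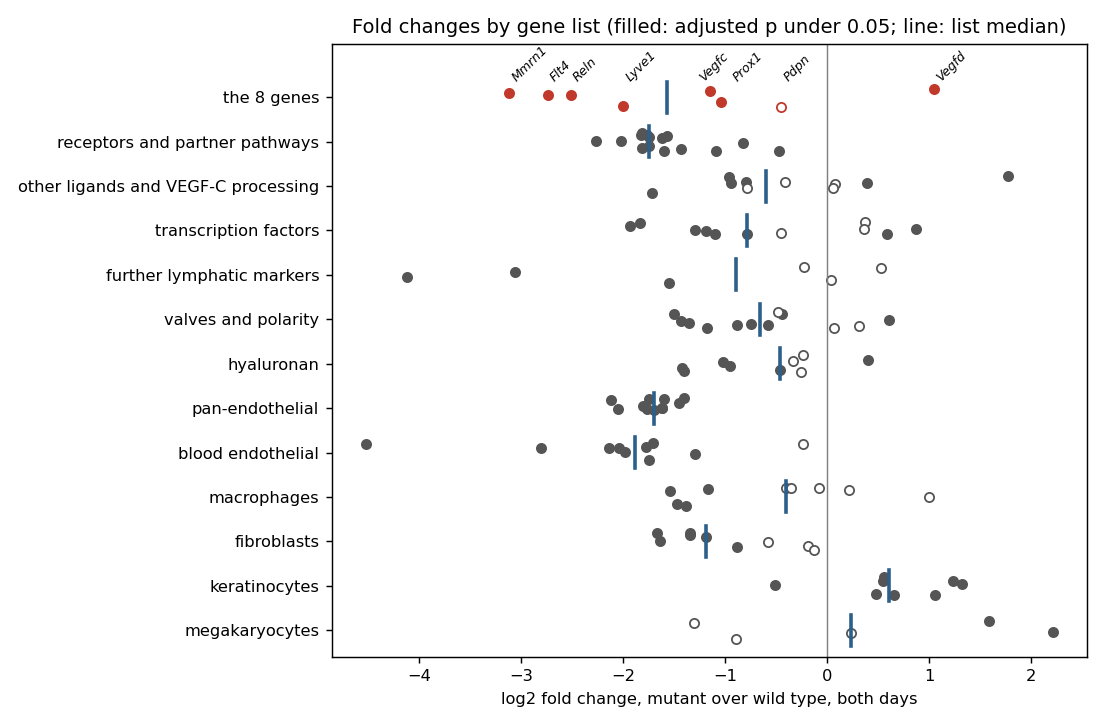
Log2 fold change over both days, mutant over wild type, of each tested gene by list; filled points have an adjusted p under 0.05, vertical bars are list medians, and the 8 genes are in red. The medians lie at -1.57 for the 8 genes, -1.75 for receptors and partner pathways and -1.70 for pan-endothelial genes, while keratinocyte genes have a median of 0.60.

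Cell types that can also make these genes were followed by their markers, and their part in the results was not tested. Of 10 blood endothelial markers 9 were lower and 1 did not pass (median -1.88): Esm1 (-4.52, adjusted p = 0.0015), Apln (-2.81, 0.000463), Gja5 (-2.14, 0.0114), Aplnr (-2.05, 0.000194), Emcn (-1.98, 0.000176) and Plvap (-1.78, 0.000633) led. Gja5 did not pass without replicate 2 of wild type at 12 dpa (0.0534) or at 14 dpa (0.0522). Their summed level was 15 to 34.7 TPM in mutants at 12 dpa, against 47.6 and 63.6 TPM in wild type, and 9.6 to 19.4 TPM in mutants at 14 dpa, against 40.2 and 55.4 TPM in wild type. For Lyve1, of 9 macrophage markers tested of 10, 4 were lower and 5 did not pass: C1qb (-1.54, 0.00844), Mrc1 (-1.48, 0.0082), Adgre1 (-1.38, 0.00389) and C1qa (-1.17, 0.0133), with Cd163 and Timd4 near 0. C1qa did not pass without wild type 14 dpa replicate 1 (0.0608). Of those that did not pass, Cd14 had a higher mean in mutants, 9.93 ± 7.97 CPM (SD, n = 6), against 4.85 ± 0.854 CPM in wild type (SD, n = 4). Csf1r was also higher, at 26.3 ± 15.2 CPM against 22.4 ± 3.85 CPM, while Cd68 (10.5 against 14.3 CPM), Cd163 and Folr2 had lower means. DESeq2 called 1 macrophage marker higher. The macrophage sum was 23.4 to 74.2 TPM in mutants and 28.7 and 41.7 TPM in wild type at 12 dpa, and 19.1 to 24.5 TPM in mutants and 26.1 and 26.5 TPM in wild type at 14 dpa. For Mmrn1, of 5 megakaryocyte markers tested of 8, 0 were lower, Gp1ba (2.21, 0.0377) and Gp1bb (1.58, 0.000618) were higher and 3 did not pass. Their sum was 11.9 to 15.3 TPM in mutants and 7.02 and 7.62 TPM in wild type at 12 dpa, and 10 to 15.2 TPM in mutants and 4.72 and 6.1 TPM in wild type at 14 dpa. Gp1bb made up most of this sum, at 10.3 ± 2.39 TPM in mutants (SD, n = 6) and 2.96 ± 1.09 TPM in wild type (SD, n = 4), while Pf4 averaged 1.13 TPM in mutants and 2.14 TPM in wild type. The platelet genes Gp9, Gp1ba, Gp6 and Treml1 were near 0, and the Gp1ba call was lost without any 1 of 6 libraries (adjusted p 0.0656 to 0.133).

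For Pdpn, keratinocyte, fibroblast and bone markers moved in different directions. Of 8 keratinocyte markers 7 were higher and 1 was lower, with Krt5 (1.32, adjusted p = 0.000123), Epcam (1.23, 0.000127), Krt14 (1.05, 0.00072), Cdh1 (0.65, 0.00256), Dsp (0.55, 0.0237) and Trp63 (0.54, 0.00304). Dsp did not pass without mutant 12 dpa replicate 2 (0.0503) or replicate 2 of wild type at 12 dpa (0.0763) or 14 dpa (0.106). The keratinocyte sum was 11400 to 15500 TPM in mutants, against 6290 and 6370 TPM in wild type at 12 dpa, and 9810 to 11800 TPM in mutants, against 4430 and 4760 TPM in wild type at 14 dpa. Of 9 fibroblast markers 6 were lower and 3 did not pass: Col1a1 (-1.67, 0.00557), Lum (-1.64, 0.00312), Pdgfrb (-1.35, 0.00165), Thy1 (-1.34, 0.000366), Prrx1 (-1.19, 0.00546) and Pdgfra (-0.89, 0.0192). Pdgfra did not pass without replicate 1 of wild type at 12 dpa (0.0665) or at 14 dpa (0.0664). The fibroblast sum was 579 to 909 TPM in mutants, against 1570 and 2020 TPM in wild type at 12 dpa, and 206 to 789 TPM in mutants, against 1050 and 1200 TPM in wild type at 14 dpa. Of 8 osteoblast and osteocyte markers 5 were lower and 3 did not pass: Ibsp (-3.09, 0.0198), Phex (-2.33, 0.0323), Sp7 (-2.28, 0.0206), Alpl (-1.96, 0.013) and Runx2 (-1.40, 0.00395). The bone sum was 24.9 to 56.2 TPM in mutants, against 151 and 155 TPM in wild type at 12 dpa, and 4.33 to 63.5 TPM in mutants, against 93.8 and 132 TPM in wild type at 14 dpa. The bone count was 2 without wild type 14 dpa replicate 1, where Ibsp (0.0646), Phex (0.104) and Sp7 (0.0735) did not pass. It was 3 without mutant 12 dpa replicate 2 (Phex 0.0661, Sp7 0.0503) and without wild type 12 dpa replicate 1 (Phex 0.106, Sp7 0.0594), and Phex did not pass without any 1 of 7 libraries.

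For Reln and Prox1, 4 of 6 neuronal markers were near 0. Of 3 neuronal markers tested of 6, Tubb3 was higher (0.68, adjusted p = 0.00503) and 2 did not pass, with Elavl3, Elavl4, Snap25 and Rbfox3 near 0. Of 5 Schwann cell markers Ncmap (1.68, 0.0208) and Mbp (0.53, 0.00185) were higher and 3 did not pass. Of 3 muscle markers tested of 5, Acta1 was lower (-2.85, 0.0011), Pax7 higher (2.05, 0.001) and 1 did not pass, with Ckm and Myod1 near 0. Of 6 pericyte markers 5 were lower and 1 did not pass: Rgs5 (-2.11, 0.000634), Acta2 (-1.72, 0.0104), Abcc9 (-1.52, 0.000401), Kcnj8 (-1.06, 0.0404) and Cspg4 (-0.38, 0.0461). Leaving out single libraries gave 3 to 5 lower pericyte genes, as Kcnj8 did not pass without any 1 of 8 libraries (adjusted p 0.0523 to 0.141) and Cspg4 without any 1 of 7 (0.0766 to 0.163). Ncmap did not pass without replicate 1 of wild type at 12 dpa (0.0723) or either wild type 14 dpa library (0.0633 and 0.0674).

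The summed neuronal markers were at 35.4 to 54.8 TPM in mutants and 22.5 to 28.7 TPM in wild type at 12 dpa, and at 24.9 to 40 TPM in mutants and 13.9 to 20.8 TPM in wild type at 14 dpa. Schwann cell markers summed to 13.6 to 18.2 TPM in mutants and 9.05 to 10.2 TPM in wild type at 12 dpa, and to 10.6 to 14.8 TPM in mutants and 5.6 to 7.48 TPM in wild type at 14 dpa. Pericyte markers summed to 76.2 to 104 TPM in mutants and 116 to 128 TPM in wild type at 12 dpa, and to 42.3 to 60 TPM in mutants and 84.6 to 91.6 TPM in wild type at 14 dpa. Tubb3 made up most of the neuronal sum, at 38 ± 11.6 TPM in mutants (SD, n = 6) and 19.5 ± 5.64 TPM in wild type (SD, n = 4), while Stmn2 averaged 1.68 TPM in mutants and 1.98 TPM in wild type. The Schwann sum was higher, and the pericyte sum lower, in every mutant library of each day.

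The 8 profiles over the 10 libraries were compared by the root mean square difference of centred log2(TPM + 0.1), where a smaller value is more alike. Among the 8, Flt4 and Lyve1 were closest (0.372), then Lyve1 and Reln (0.469), Lyve1 and Mmrn1 (0.481) and Prox1 and Vegfc (0.486). Vegfd was farthest from Mmrn1 (1.68) and from Flt4 (1.67). Among 11431 protein-coding genes with a mean of at least 1 TPM, the nearest to Flt4 were Gpihbp1 (0.324), Krt90 (0.383) and Entpd3 (0.395). The nearest to Prox1 were Nfe2l3 (0.182), Synm (0.186) and Adgrl3 (0.19), and to Vegfc Olfm1 (0.131), Pid1 (0.158) and Zcchc24 (0.182). Prox1 averaged 0.117 TPM in mutants and 0.185 TPM in wild type, close to the added 0.1. Its profile is therefore flattened on this scale, which limits what its distances show. All points share libraries and depth, and the values are a description over 10 libraries.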

How the data were processed

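RNA-seq libraries of 10 mouse digit tip blastema pools in 4 genotype-by-day groups were used. The authors deposited expected counts and TPM per gene and library, with effective lengths, in RSEM's column layout, per the file headers; deposited FPKM values were not used. Per the submitters' processing notes, FastQC, STAR 2.7.8a, RSEM 1.3.0 and build GRCm39 were named without role or order. Of the deposited expected counts, 13.9% were not whole, since reads that fit several genes are divided. No source used here states the strand setting.

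Expected counts were rounded and fitted with edgeR 4.0.16 (limma 3.58.1, R 4.3.3): filterByExpr (minimum count 10, minimum total 15), TMM factors, 1 robust quasi-likelihood fit over all 10 libraries without covariates, Benjamini-Hochberg adjustment over 20216 genes and a threshold of 0.05. CPM values use TMM-scaled totals. The endothelium-relative fit replaced library size by the geometric mean of 11 pan-endothelial counts. Motifs were searched on both strands. DESeq2 1.42.0, limma-voom, limma-trend on log2(TPM + 0.1 or 1), other scalings and filters, sex as a covariate and each library left out were alternatives.

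Groups came from the titles; titles and descriptions number the wild type 14 dpa libraries in opposite order. Replicates differed far beyond counting noise (chi-square 125.1 to 243.5 per degree of freedom). Named genes were the 8 members, up to 6 genes per list with the largest change among those passing over both days, list genes with a mean under 0.1 TPM in every group (near 0), the 3 nearest profiles of Flt4, Prox1 and Vegfc, and Lmx1b. Members and lists were chosen with earlier results of these data known.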

Additional observations from a re-analysis of the deposited data

How the results depend on the processing

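Over the settings tried, the 6 lower genes and Vegfd kept their direction over both days. Flt4, Reln, Vegfc and Vegfd passed over both days in every setting but the one that puts mutant 14 dpa replicate 1 in wild type. That setting called 0 members over both days, at 12 dpa, at 14 dpa and relative to endothelium. Leaving out single libraries gave 6 to 6 lower and 1 to 1 higher over both days, 3 to 5 and 0 to 1 at 12 dpa, 2 to 7 and 0 to 1 at 14 dpa, and 1 to 3 and 2 to 3 relative to endothelium. Pdpn at 12 dpa ran from -0.030 without mutant 12 dpa replicate 3 to 0.77 without mutant 12 dpa replicate 1. DESeq2 called 1 gene higher at 14 dpa, and 3 higher from 12 to 14 dpa in mutants, with no share of all genes given for either count. Relative to endothelium, limma-trend on log2(TPM + 1) called 0 lower and 5 higher, and turned Flt4 to 0.024, Lyve1 to 0.18, Reln to 0.11 and Mmrn1 to 0.47; log2(TPM + 0.1) called 1 lower. The cause was not tested. On these TPM scales Prox1 did not pass over both days (adjusted p = 0.0748 and 0.0864), the median of all genes moved to 0.139 and 0.259, and 71.8 and 71.9% of all calls were higher, against 49.2% in the edgeR fit; relative to that median the 6 lower genes stayed lower and Vegfd higher.

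Same-numbered libraries showed no shared deviation from their group means (13 pairs, r from -0.121 to 0.0862). This check cannot exclude a pairing, since deviations mirror each other in groups of 2 and the wild type 14 dpa numbers are in doubt. With the replicate block, 6 were lower and 1 higher over both days, 4 lower and 0 higher at 12 dpa (Vegfd adjusted p = 0.0694), 5 lower and 0 higher at 14 dpa, 3 lower and 3 higher relative to endothelium, and 0 in the other comparisons. With sex as a covariate, the 14 dpa calls of Lyve1 and Pdpn and the endothelium-relative call of Prox1 were lost. Mmrn1 at 14 dpa passed in limma-voom (0.02) and limma-trend (0.00894 and 0.019), and at 12 dpa did not pass with no filter (0.0548). Settings chosen after seeing the data were the pair of libraries in doubt left out, which gave 2 lower at 14 dpa, male libraries alone, which gave 3 lower over both days, 1 lower and 0 higher at 12 dpa and 1 lower at 14 dpa (1 wild type library a day, assumed to vary like the other groups), and the exact permutation relative to endothelium. With 2 wild type libraries per day, a single library decides many calls within a day. Of 80 named list genes, 19 lost their call without at least 1 library. Library-size scalings could not be applied to the endothelium-relative fit; with Cdh5 and Pecam1 as its scale, 2 members were lower and 4 higher.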
